A study of Mus musculus with 9 samples.

Results

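The transforming growth factor beta (TGF-beta) pathway and its repressor TGIF1 were described here by 10 genes, Tgfb1, Thbs1, Tgfbr1, Tgfbr2, Smad2, Smad3, Smad4, Smad7, Tgif1 and Tgif2, which were picked by their symbols from a table of 55536 genes. The table holds 9 RNA-seq libraries, 3 of each of 3 populations of mouse acute myeloid leukemia cells. The leukemia was made by putting the fusion gene MLL-AF9, together with GFP, into c-kit+ blood-forming cells with a retrovirus, either from wild-type mice (AML-WT) or from mice with an Irf7 null allele (AML-IRF7-/-), in which a beta-geo cassette replaces part of the gene. GFP+ leukemia cells were passed into C57BL/6J recipients aged 6 to 8 weeks, which were not irradiated, and bone marrow was taken at day 18 and sorted by c-kit, a receptor on leukemia stem and progenitor cells. The groups, named as in the labels, were WT c-kit-, WT c-kit+ and IRF7-/- c-kit+. By the labels the AML-WT libraries have the genotype control-GFP, all carry the GFP vector, and no c-kit- cells of the knockout were profiled. Since every library carries MLL-AF9 and GFP and comes from wild-type recipients, no library shows normal marrow, and nothing in the labels says that libraries of a group came from separate mice, so p-values measure only the spread between these libraries.

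TGF-beta is secreted bound to a latency peptide and has to be set free before it can act. The active ligand joins the type II receptor TGFBR2 to the type I receptor TGFBR1, which phosphorylates SMAD2 and SMAD3. These form complexes with SMAD4 that enter the nucleus, while SMAD7 blocks the receptor and the homeodomain proteins TGIF1 and TGIF2 bind SMAD complexes and recruit corepressors. In blood formation the pathway is known for holding stem and progenitor cells in quiescence.

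Levels are given in TPM, transcript counts that are scaled by gene length and to a common library total. The table's 9 libraries sum to between 987468 and 992231 TPM. TPM do not keep the number of reads, so depth is unknown and precision is known from the spread of 3 libraries alone. In bulk RNA, fewer cells of a type and less RNA per cell cannot be told apart. Irf7, read first, had 8.91 ± 3.52 TPM (SD, n = 3) in the libraries labelled IRF7-/- c-kit+ and 4.19 ± 1.01 TPM (SD, n = 3) in WT c-kit+, so each labelled library was above each WT c-kit+ library (log2 fold change 0.89, limma adjusted p = 0.0321). This goes against a knockout label. WT c-kit- had 26.0 ± 5.48 TPM (SD, n = 3), and the labelled libraries were 2.92-fold lower than that group (log2 fold change -1.49, limma adjusted p = 0.00298). The study also checked IRF7 in its leukemias by qRT-PCR and Western blot, which are not analysed here. A value for the whole gene does not separate the replaced exons from the rest, so the label is kept as a name only, and every direction below rests on it. Kit had 80.5 ± 8.86, 53.5 ± 4.35 and 1.58 ± 1.3 TPM (SD, n = 3 each) in the labelled libraries, WT c-kit+ and WT c-kit-, as the sort requires. The 10 most abundant genes took 13.1% to 17.3% of all TPM in WT c-kit+ and 9.39% to 10.3% in the other 6 libraries, and by the construction of TPM that share is missing from all other genes. The sorted cells carried myeloid leukemia markers: the 10 of them summed to 2730 to 3050 TPM in WT c-kit-, 10500 to 13900 TPM in WT c-kit+ and 10500 to 14000 TPM in the labelled libraries. Mpo and Elane made up most of the sums in the c-kit+ groups, and other genes of the list differed between those groups. From WT c-kit+ to the labelled libraries 3 of the 10 were higher, the progenitor genes Kit, Hoxa9 and Meis1 (log2 fold change 0.58, 0.37 and 0.58). Lower were 3, Itgam (-0.99), Csf1r (-0.76) and Ly6g (-3.93), which mark mature myeloid cells. For these 6 genes limma adjusted p ran from 0.00026 to 0.0244. The other 4, Ptprc (0.06), Spi1 (-0.08), Mpo (-0.38) and Elane (0.37), did not pass. Of all genes tested in this comparison 31.9% were higher and 16.1% lower. The part of the marker differences in the results below was not tested. Over the 9 libraries the summed TPM were 0.14 to 1.58 for 5 T cell markers, 26.4 to 38.1 for 5 B cell markers, mostly Cd79b, 3.81 to 18.2 for 8 erythroid markers, and 16.9 to 59.7 for 6 markers of stroma and endothelium, mostly Lepr.

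The libraries labelled IRF7-/- c-kit+ had more RNA of the ligand and its type I receptor than WT c-kit+, and less of Smad3, Tgif1 and Thbs1. Tgfb1 was 1.99-fold and Tgfbr1 1.3-fold higher in mean TPM, whereas Smad3 was 1.66-fold, Tgif1 2.35-fold and Thbs1 43.2-fold lower. Smad2 was also lower, by 1.14-fold, a call lost in 6 of 13 alternatives. Differences were tested with limma on log2(TPM + 1), a scale that understates changes of low genes, and passed at a Benjamini-Hochberg adjusted p under 0.05 over all genes tested. Of the 10 genes, 2 were higher and 4 lower by this test, against 31.9% higher and 16.1% lower of the 13238 genes tested. Tgif1 and Thbs1 also moved by 1 or more in log2 fold change, which makes 2 of 10 past both thresholds against 11.7% of all genes. The study singled out Tgif1 and Thbs1 with these libraries in hand, so their calls are not independent evidence.

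Against WT c-kit-, the same labelled libraries had less RNA of 6 of the 10 genes, namely Smad2, Smad3, Smad4, Tgfbr2, Tgif1 and Thbs1. None of the 10 was higher (limma with adjusted p), and 1 of them, Tgif2, was higher at an unadjusted p under 0.05. With median scaling or quantile normalization 9 of the 10 passed, since Tgif2, Tgfb1 and Tgfbr1 were then higher. Over all 13510 genes tested, 28.7% were lower and 30.7% higher at an adjusted p without scaling. With median scaling 3479 of them were lower and 4775 higher, and with quantile normalization 3502 and 4688. Smad4, Tgif1 and Thbs1 passed both thresholds, 3 of 10 against 20.3% of all genes, and Smad4 fell short of a change of 1 with either scaling and without replicate 3 of the labelled libraries. Between the wild-type populations, WT c-kit+ had less RNA than WT c-kit- of 4 of the 10 genes, Tgfb1, Smad2, Smad4 and Tgfbr2, where 27.6% of 13261 genes were lower. None of the 10 was higher in WT c-kit+, at an adjusted or an unadjusted p in limma. None passed both thresholds, at an adjusted or an unadjusted p. Of all genes 14.0% were higher and 14.4% passed both thresholds at an adjusted p. The shares of all genes at an unadjusted p were not counted. The 3 comparisons share their groups and are not independent of each other.

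The median gene moved by 0.12, 0.03 and -0.08 on the log2 scale in the labelled libraries against WT c-kit+, in the labelled libraries against WT c-kit-, and in WT c-kit+ against WT c-kit-. Scaling each library to a common median changed the balance of calls over all genes, from 66.4% to 56.4% higher in the first of these comparisons. In the second it went from 51.6% to 57.9% higher, and in the last from 33.7% to 53.6% higher. Among the 10 genes the scaling cut the calls between the wild-type populations from 4 to 2, leaving Tgfb1 and Smad4, and it left the 6 genes called between the c-kit+ populations in place. Between the labelled libraries and WT c-kit- it raised them from 6 to 9, with 3 higher in place of 0, and cut those past both thresholds from 3 to 2. Of all 13510 genes in that comparison 4775 were then higher, 3479 lower and 2768 past both thresholds.

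**Figure D1:**
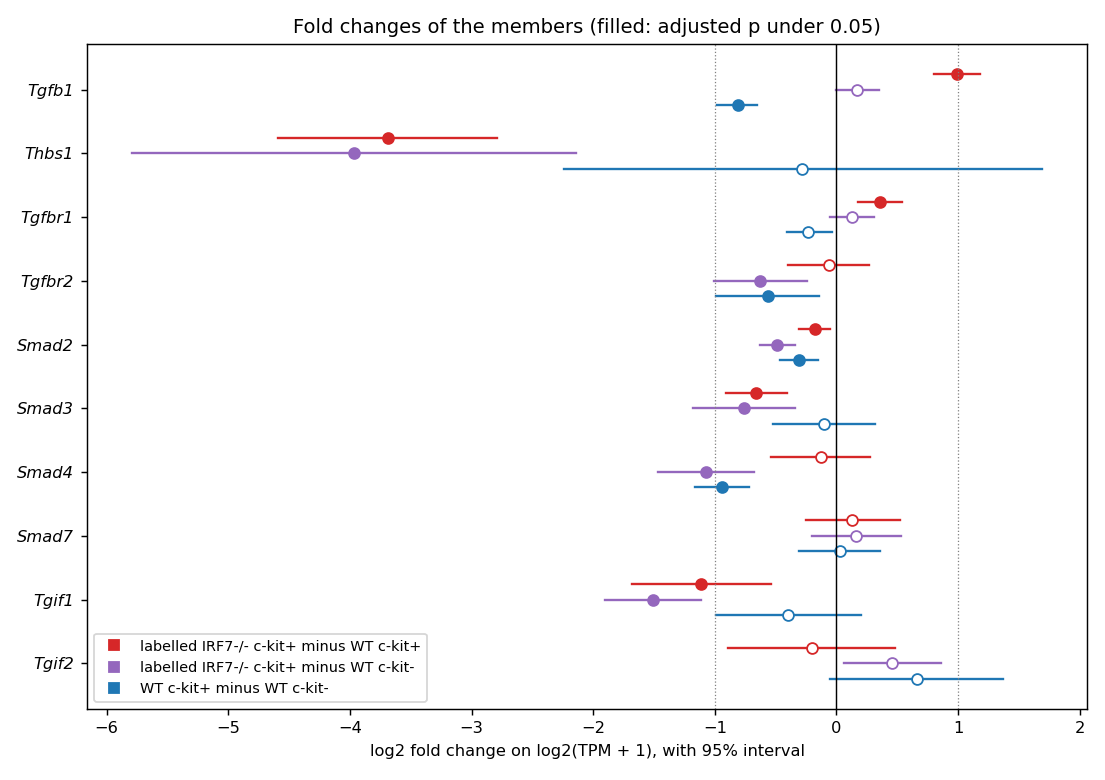
Log2 fold change of the 10 genes on the log2(TPM + 1) scale for the 3 comparisons, each from limma on 3 libraries against 3, with bars for the 95% interval, filled points for adjusted p under 0.05 and dotted lines at a change of 1 in size. Thbs1 and Tgif1 lie left of -1 in both comparisons of the labelled libraries, and Tgfb1 lies at 0.99 against WT c-kit+.

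The promoters of Tgif1, Smad3 and Tgfb1 are shown as those of the repressor, a signal carrier and the ligand, each of which differed between the c-kit+ populations in 13 of 13 alternative settings of the test. Each run holds 250 bases before and 50 after a transcription start, 5′ to 3′ on the gene's strand, in RefSeq's GRCm38.p6. Tgif1 is shown at chr17:70853483-70853782 (minus strand), the farthest upstream of its 5 starts, Smad3 at chr9:63757945-63758244 (minus strand) and Tgfb1 at chr7:25686752-25687051 (plus strand). Capitals mark CAGAC, a short SMAD-binding sequence, and TGTCA, the core bound by TGIF proteins, each searched on both strands, so that TGACA is TGTCA on the other strand.
Tgif1: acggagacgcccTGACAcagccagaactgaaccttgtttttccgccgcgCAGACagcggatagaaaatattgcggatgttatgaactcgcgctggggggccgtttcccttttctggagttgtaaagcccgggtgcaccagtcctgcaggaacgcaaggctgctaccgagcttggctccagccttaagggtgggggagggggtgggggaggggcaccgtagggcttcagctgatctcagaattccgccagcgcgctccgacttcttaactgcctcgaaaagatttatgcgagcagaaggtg
Smad3: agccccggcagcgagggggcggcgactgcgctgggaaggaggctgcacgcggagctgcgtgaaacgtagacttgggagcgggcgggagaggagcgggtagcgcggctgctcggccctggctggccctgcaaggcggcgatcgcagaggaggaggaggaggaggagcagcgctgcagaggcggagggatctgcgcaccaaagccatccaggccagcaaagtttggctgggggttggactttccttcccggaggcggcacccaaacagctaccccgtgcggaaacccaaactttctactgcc
Tgfb1: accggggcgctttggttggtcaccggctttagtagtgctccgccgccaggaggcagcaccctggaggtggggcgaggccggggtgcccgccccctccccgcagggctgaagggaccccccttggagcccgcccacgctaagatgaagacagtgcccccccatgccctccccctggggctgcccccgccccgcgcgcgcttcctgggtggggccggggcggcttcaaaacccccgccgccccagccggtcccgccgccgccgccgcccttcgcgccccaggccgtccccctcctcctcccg

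In this Tgif1 window 1 TGACA began at position -238 and 1 CAGAC at position -201 from the start, and neither sequence was in the Smad3 or Tgfb1 window. The table held a promoter for 6 of the 10 genes, with 11 starts in all. CAGAC was in 5 of these 11 windows, 3 of them Tgif1's, and TGTCA in 5 of 11, 4 of them Tgif1's. Of all 32851 mouse promoters listed there, 49.6% held CAGAC and 45.4% held TGTCA, so matches at this rate are common. The palindrome GTCTAGAC and the interferon-stimulated response element, the sequence class bound by interferon regulatory factors, were in none of the 11 windows, and were in 0.213% and 3.44% of all promoters. GC content was 58.0% for Tgif1, 67.7% for Smad3 and 77.0% for Tgfb1, against a median of 52.7%. A match is no evidence of binding, and the data hold no measurement of binding.

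Tgfb1, the ligand, was the most abundant of the 10 genes and its promoter was the richest of the 3 in GC. Its level was 267, 245 and 248 TPM in WT c-kit- libraries 1, 2 and 3, 135, 154 and 144 TPM in WT c-kit+ and, in the labelled libraries, 290, 261 and 307 TPM. All WT c-kit+ libraries lay below the other 6, and the other two groups overlapped. The level in WT c-kit+ put Tgfb1 above 93.6% of 13962 expressed genes, and that in the labelled libraries above 96.8%. From WT c-kit+ to the labelled libraries the log2 fold change was 0.99 (standard error, SE, 0.08, limma adjusted p = 0.000236), and it was 0.9 to 1.05 over 13 alternatives. From WT c-kit- to WT c-kit+ it was -0.81 (SE 0.07, limma adjusted p = 0.000186). The labelled libraries and WT c-kit- differed by 0.17 (95% interval 0.00 to 0.35, limma adjusted p = 0.0803), a difference that passed with median scaling at 0.25 (limma adjusted p = 0.0263), with quantile normalization at 0.25 (adjusted p = 0.0197) and without replicate 2 of the labelled libraries at 0.24 (adjusted p = 0.0244).

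**Figure D2:**
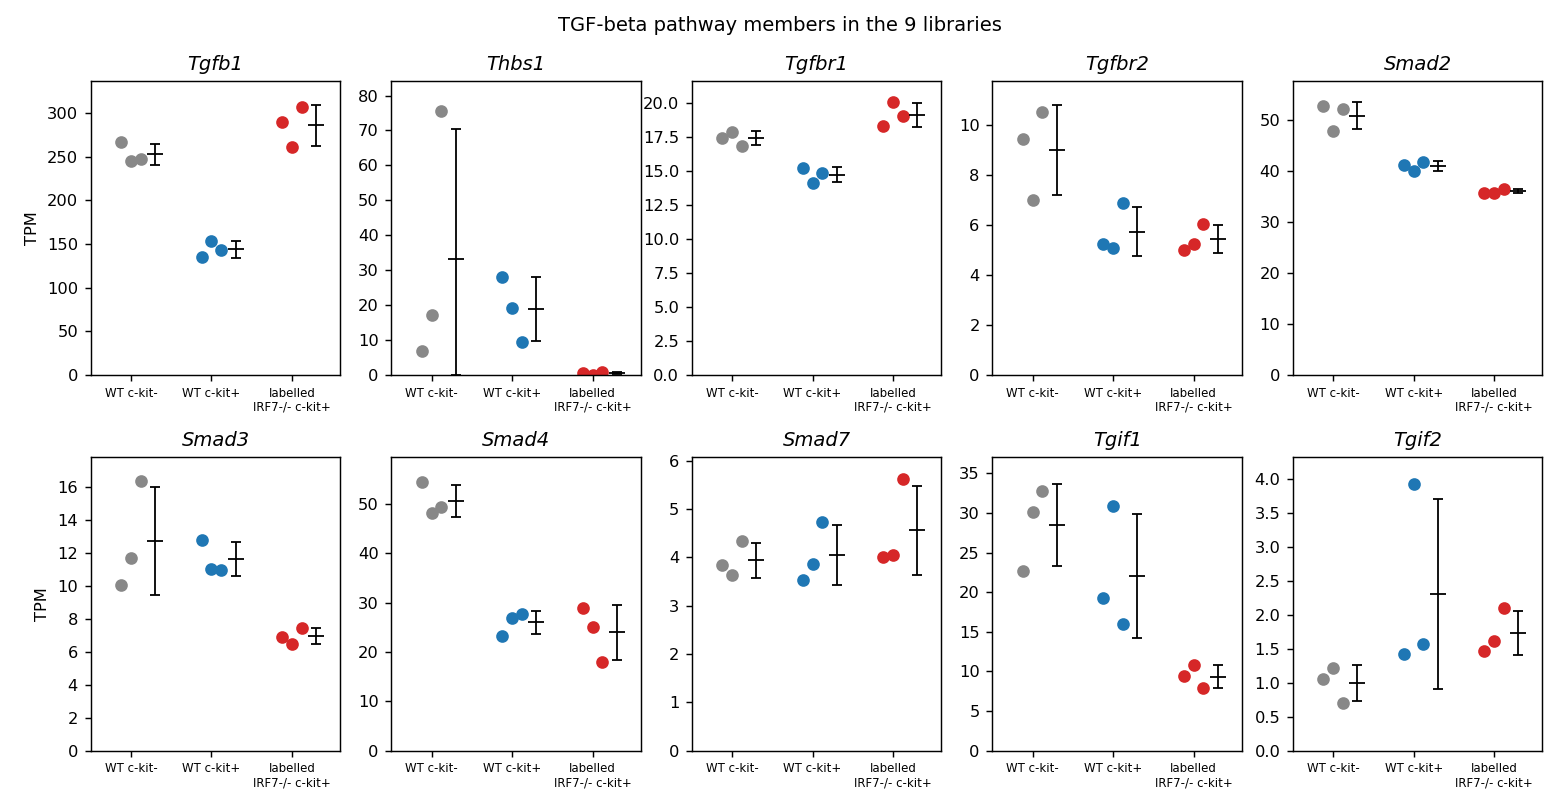
TPM of the 10 genes in each library, with the mean and SD of the 3 libraries of each group beside the points; every axis starts at 0 and the lower SD bar of Thbs1 in WT c-kit- is cut there. For Tgif1, Smad2, Smad3 and Thbs1 the 3 labelled libraries lie below the 6 wild-type ones, and for Tgfb1 the WT c-kit+ libraries lie below the others. How many of all genes separate in these ways was not counted.

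Thbs1 encodes thrombospondin 1, a matrix protein that can release TGF-beta from its latency peptide. It had 6.8, 17.0 and 75.6 TPM in WT c-kit-, 27.9, 19.2 and 9.38 TPM in WT c-kit+ and, in the labelled libraries, 0.49, 0.11 and 0.71 TPM. The lowest wild-type library was above the highest labelled one, and the wild-type groups overlapped with the widest spread of the 10 genes. The log2 fold change was -3.69 against WT c-kit+ (SE 0.38, limma adjusted p = 0.00056), where it ranked 75 by size among 13238 genes, and -3.97 against WT c-kit- (SE 0.77, limma adjusted p = 0.00414). Permuting the libraries exactly, two-sided, gave p = 0.1 in both cases, and 3 libraries against 3 cannot give less. Since the labelled libraries were under 1 TPM, the size depends on the pseudocount, and with 0.1 in place of 1 the first value was -5.22.

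WT c-kit- library 3, at 75.6 TPM, set the mean of its group. Without it the change from that group to the labelled libraries was -3.07 (limma adjusted p = 0.00174), and that between the wild-type groups turned from -0.28 to 0.62 and did not pass in either case. Gm29233, a noncoding gene that overlaps Thbs1 on the other strand, reached 5.23 TPM in WT c-kit- and was 0 in every library of WT c-kit+ and of the labelled group. Whether reads were assigned by strand is not stated, so those 2 genes may share reads. Platelets and macrophages also make Thbs1, and markers of these and a granulocyte marker are given beside it. Ly6g, a granulocyte marker picked from the myeloid list, had 16.0, 11.36 and 65.02 TPM in WT c-kit-, 45.37, 19.57 and 35.46 TPM in WT c-kit+ and, for the labelled libraries, 1.77, 0.65 and 1.15 TPM. Like Thbs1 it was lower in each labelled library than in each wild-type one, with log2 fold changes of -3.93 against WT c-kit+ (limma adjusted p = 0.00026) and -3.49 against WT c-kit- (limma adjusted p = 0.0026), and was highest in WT c-kit- library 3. No list of granulocyte markers was drawn up. In the myeloid list Itgam and Csf1r were also lower in both comparisons. Mpo and Elane did not pass between the c-kit+ groups and were higher in the labelled libraries than in WT c-kit- (log2 fold change 3.1 and 3.15). The 8 platelet and megakaryocyte markers summed to 1.89 to 2.68 TPM in WT c-kit-, 9.72 to 11.8 TPM in WT c-kit+ and 9.32 to 13.0 TPM in the labelled libraries. In the c-kit+ groups this was mostly Gp9, whereas Itga2b and Treml1 had the highest means in WT c-kit-, and Pf4 was at most 1.1 TPM in any library. Summed TPM of 6 macrophage markers were 2.23 to 3.24, 7.78 to 13.1 and 3.56 to 7.36 in the same order. The 3 of them tested between the c-kit+ groups, C1qa, C1qb and C1qc, were lower in the labelled libraries, as were 16.1% of all genes. The part of these cells in the Thbs1 levels was not tested.

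The receptors were present at lower levels than their ligand. Tgfbr1, the type I receptor kinase, had 17.4, 17.9 and 16.9 TPM in WT c-kit-, 15.2, 14.1 and 14.8 TPM in WT c-kit+ and, in the labelled libraries, 18.3, 20.1 and 19.0 TPM. None of the groups overlapped. Its log2 fold change of 0.36 from WT c-kit+ to the labelled libraries passed (SE 0.07, limma adjusted p = 0.00819). The differences of the labelled libraries from WT c-kit- (0.13, 95% interval -0.05 to 0.31, limma adjusted p = 0.181) and of WT c-kit+ from WT c-kit- (-0.23, 95% interval -0.41 to -0.04, limma adjusted p = 0.0536) did not. The first of these passed with median scaling (0.21, adjusted p = 0.0443) and quantile normalization (0.21, adjusted p = 0.0476). The second passed with all 9 libraries in one fit (adjusted p = 0.0256), with a filter of 5 TPM (adjusted p = 0.0435) and with a pseudocount of 0.1 (adjusted p = 0.048), and its adjusted p over 13 alternatives ran to 0.474.

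Tgfbr2, the type II receptor that binds the ligand first, had 9.45, 7.0 and 10.5 TPM in WT c-kit-, 5.25, 5.07 and 6.86 TPM in WT c-kit+ and, in the labelled libraries, 4.98, 5.22 and 6.05 TPM. Both c-kit+ groups lay below WT c-kit- and overlapped each other. The labelled libraries were lower than WT c-kit- by a log2 fold change of -0.63 (SE 0.16, limma adjusted p = 0.0146), which missed the threshold without replicate 1 of the labelled libraries (-0.58, limma adjusted p = 0.0516). WT c-kit+ was lower than WT c-kit- by -0.56 (SE 0.18, limma adjusted p = 0.043), and this call held in 6 of 13 alternatives. It was lost without WT c-kit- replicate 1 or 3 (adjusted p = 0.114 and 0.111) and without WT c-kit+ replicate 1 or 2 (adjusted p = 0.121 and 0.114). The call was also lost with median scaling (-0.42, limma adjusted p = 0.105), quantile normalization (-0.41, adjusted p = 0.106) and no filter on low values (adjusted p = 0.0978). Between the c-kit+ groups the difference was -0.06 (95% interval -0.4 to 0.27, limma adjusted p = 0.746). The ratio of Tgfbr1 to Tgfbr2 in TPM was 2.0 ± 0.492 in WT c-kit-, 2.61 ± 0.396 in WT c-kit+ and 3.55 ± 0.366 in the labelled libraries (SD, n = 3 each).

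Smad2 and Smad3 encode the signal carriers that the receptor phosphorylates. Smad3 had 10.04, 11.7 and 16.3 TPM in WT c-kit-, 12.8, 11.0 and 11.0 TPM in WT c-kit+ and, in the labelled libraries, 6.91, 6.49 and 7.46 TPM. Its wild-type groups overlapped and the labelled libraries lay below both. The log2 fold change was -0.66 against WT c-kit+ (SE 0.1, limma adjusted p = 0.00267) and -0.76 against WT c-kit- (SE 0.18, limma adjusted p = 0.00918), and each passed in 13 of 13 alternatives. Between the wild-type groups it was -0.1 (95% interval -0.52 to 0.32, limma adjusted p = 0.693).

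Smad2 was more abundant than Smad3, with 52.8, 47.9 and 52.2 TPM in WT c-kit-, 41.1, 40.0 and 41.8 TPM in WT c-kit+ and, in the labelled libraries, 35.8, 35.8 and 36.6 TPM. The 3 groups did not overlap and came in this order. It fell by 0.49 on the log2 scale from WT c-kit- to the labelled libraries (SE 0.06, limma adjusted p = 0.000662), a call kept in 13 of 13 alternatives. The step between the wild-type groups, -0.31 (SE 0.06, limma adjusted p = 0.00873), was lost with median scaling (-0.15, adjusted p = 0.121) and quantile normalization (-0.14, adjusted p = 0.131). The step between the c-kit+ groups, -0.18 (SE 0.05, limma adjusted p = 0.0311), was lost when any library but WT c-kit+ replicate 2 was left out, with adjusted p up to 0.0981, and with the replicate number as a block (adjusted p = 0.071). The ratio of Smad2 to Smad3 in TPM was 4.19 ± 1.03 in WT c-kit-, 3.56 ± 0.301 in WT c-kit+ and 5.2 ± 0.306 in the labelled libraries (SD, n = 3 each), and the last 2 groups did not overlap.

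Smad4, the common partner of the signal-carrying SMADs, was lower in both c-kit+ groups than in c-kit- cells. Its levels were 54.4, 48.2 and 49.5 TPM in WT c-kit-, 23.3, 27.0 and 27.8 TPM in WT c-kit+ and, in the labelled libraries, 28.9, 25.1 and 17.9 TPM. The log2 fold change from WT c-kit- was -0.94 in WT c-kit+ (SE 0.09, limma adjusted p = 0.000303) and -1.07 in the labelled libraries (SE 0.17, limma adjusted p = 0.00157). The second value passed at an adjusted p in 13 of 13 alternatives, but was under 1 in size with median scaling (-0.9951), with quantile normalization (-0.9987) and without replicate 3 of the labelled libraries (-0.8868), which was the lowest of its group. Between the c-kit+ groups, which overlapped, it was -0.13 (95% interval -0.54 to 0.28, limma adjusted p = 0.55). The overlapping pseudogene AC132418.2, on the other strand, was at or under 2.35 TPM in every library.

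Smad7, the inhibitory SMAD that is itself induced by TGF-beta in many cells, was low and did not pass in any comparison. It had 3.85, 3.63 and 4.33 TPM in WT c-kit-, 3.54, 3.86 and 4.74 TPM in WT c-kit+ and, in the labelled libraries, 4.0, 4.05 and 5.63 TPM, so all groups overlapped. The difference between the c-kit+ groups was 0.13 on the log2 scale, with a 95% interval of -0.25 to 0.52, which leaves room for a moderate change in either direction.

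Tgif1 encodes the corepressor that the study followed up. The gene lies at chr17:70844205-70853546 on the minus strand of GRCm38, with 12 transcripts in GENCODE M21, 9 of them protein coding, and no gene overlapping it. It had 22.7, 30.1 and 32.7 TPM in WT c-kit-, 19.2, 30.9 and 16.0 TPM in WT c-kit+ and, in the labelled libraries, 9.45, 10.8 and 7.84 TPM. Each labelled library was below each of the 6 wild-type libraries, and the wild-type groups overlapped because WT c-kit+ library 2 was as high as the c-kit- cells. In rank, Tgif1 was above 63.2% of expressed genes in WT c-kit-, 59.0% in WT c-kit+ and 38.1% in the labelled libraries.

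From WT c-kit+ to the labelled libraries Tgif1 changed by -1.11 on the log2 scale (SE 0.24, 95% interval -1.68 to -0.54, limma adjusted p = 0.00905), where it ranked 1435 by size among 13238 genes. Over 13 alternatives the value ran from -1.3 to -0.85 and the adjusted p from 0.00461 to 0.0334. The smallest value came without WT c-kit+ replicate 2, and there Tgif1 no longer reached a change of 1. Against WT c-kit- the change was -1.51 (SE 0.17, limma adjusted p = 0.000356). The exact two-sided permutation p was 0.1 for both, again the smallest possible. Between the wild-type groups the difference was -0.4 (95% interval -0.99 to 0.2, limma adjusted p = 0.252). It passed without WT c-kit+ replicate 2 (-0.66, limma adjusted p = 0.0342), so that 1 library decides whether Tgif1 differs between c-kit+ and c-kit- wild-type cells.

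Tgif2, the second TGIF gene, was far lower than Tgif1 in every library and did not pass in any comparison. It had 1.05, 1.22 and 0.7 TPM in WT c-kit-, 1.42, 3.92 and 1.57 TPM in WT c-kit+ and, in the labelled libraries, 1.47, 1.62 and 2.1 TPM. Both c-kit+ groups were above WT c-kit- without overlap, and they overlapped each other, with WT c-kit+ library 2 the highest, as it was for Tgif1 within that group. Between the c-kit+ groups the difference was -0.2 (95% interval -0.89 to 0.48, limma adjusted p = 0.591), and without WT c-kit+ replicate 2 it was 0.12. From WT c-kit- it was 0.46 to the labelled libraries (95% interval 0.06 to 0.86, limma adjusted p = 0.0516), which passed with median scaling (0.5, adjusted p = 0.0362) and quantile normalization (0.48, adjusted p = 0.0488), and 0.66 to WT c-kit+ (limma adjusted p = 0.121). The noncoding gene 5430405H02Rik overlaps Tgif2 on the other strand with up to 4.89 TPM, more than Tgif2 itself, so the Tgif2 values are uncertain. The ratio of Tgif1 to Tgif2 in TPM was 31.0 ± 13.7 in WT c-kit-, 10.5 ± 2.85 in WT c-kit+ and 5.6 ± 1.62 in the labelled libraries (SD, n = 3 each), with no overlap between groups.

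The genes whose profile over the 9 libraries was most like that of Tgif1 were found by the root mean square (RMS) difference in log2(TPM + 1), each gene centred on its own mean, among 13382 genes with a mean of at least 1 TPM. They were Sertad1, a CDK4-binding regulator of E2F (RMS 0.17), the predicted gene Gm36723 (0.19), the kinase gene Ripk4 (0.19), Zfand5, whose product activates the proteasome (0.20), and Ift81, an intraflagellar transport gene (0.21). A flat gene would differ from Tgif1 by 0.69. Sertad1 had 24.4, 31.7 and 33.2 TPM in WT c-kit-, 24.3, 33.1 and 22.1 TPM in WT c-kit+ and, in the labelled libraries, 13.3, 13.1 and 10.8 TPM, so it shared with Tgif1 both the low labelled libraries and the high library 2 of WT c-kit+. Zfand5 had 60.9, 117 and 122 TPM, then 80.4, 103 and 57.0 TPM, and then 35.4, 34.7 and 36.9 TPM in the same order. Gm36723, Ripk4 and Ift81 were near the floor, with means of 1.43, 1.65 and 1.21 TPM in WT c-kit+. Their means in the labelled libraries were 0.0733, 0.453 and 0.34 TPM. The log2(TPM + 1) scale understates changes of such low genes, so their fold changes in TPM can differ from that of Tgif1. Gm36723 and Ift81 did not reach the filter between the c-kit+ groups. Of the other 9 genes of the pathway, Smad3 was nearest to Tgif1, in place 378 with an RMS of 0.42, and Smad4 next in place 931 with 0.50, while Thbs1 was in place 12617. These genes were chosen for likeness, so their profiles are a description.

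**Figure D3:**
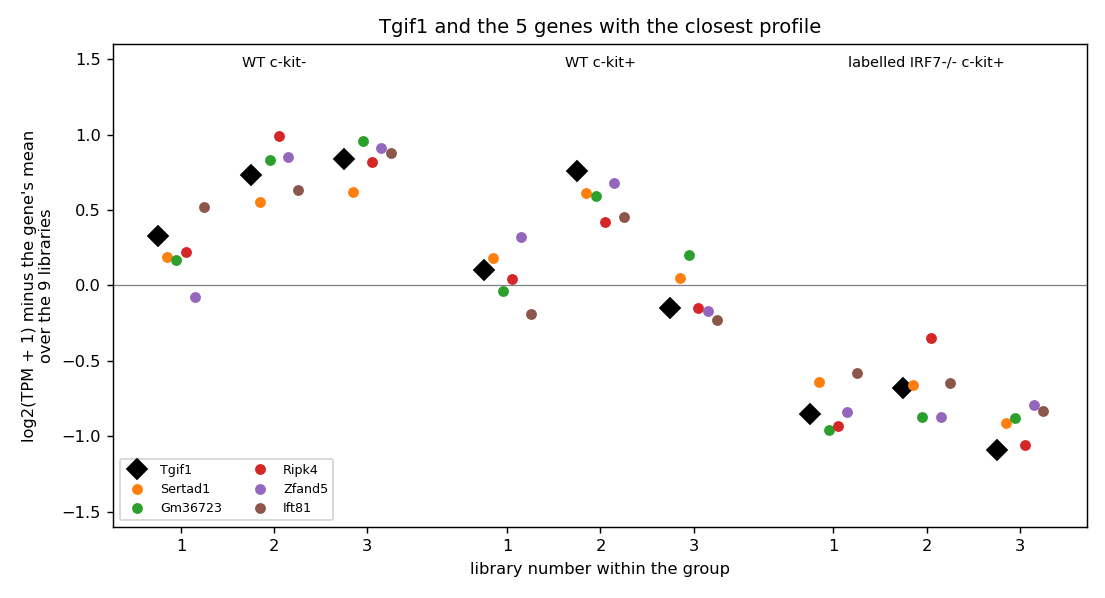
log2(TPM + 1) of Tgif1 (diamonds) and of the 5 genes nearest to it (dots), centred on each gene's mean over the 9 libraries and plotted by library within each group. All 6 genes are below their mean in the 3 labelled libraries and above it in WT c-kit+ library 2.

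Lists of 110 genes, the 10 included, were drawn up for ligands, latent TGF-beta, receptors, SMADs, their regulators, TGIF1 corepressors, response genes and thrombospondins. Of 65 tested between the labelled libraries and WT c-kit+, 18 were higher, 19 lower and 28 did not pass. This is 27.7% higher and 29.2% lower, beside 31.9% and 16.1% of all genes, with a median log2 fold change of -0.01 beside 0.12 over all genes. Without the 10 genes, 16 of 55 were higher and 15 lower. Against WT c-kit-, 16 of 67 were higher and 31 lower in the labelled libraries, which is 23.9% and 46.3% beside 30.7% and 28.7% of all genes. WT c-kit+ against WT c-kit- gave 8 higher and 25 lower of 66, or 12.1% and 37.9% beside 14.0% and 27.6%. Both medians, -0.13 and -0.22, lay below those of all genes, 0.03 and -0.08.

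Among ligands, 3 of 15 could be tested between the c-kit+ groups, and besides Tgfb1 these were Gdf3, a TGF-beta family ligand of early embryos, and Inhba, the activin A subunit, which is named here after its values were seen. Gdf3 was listed at or near 0 in the wild-type groups, at most 0.03 TPM, and had 6.04, 5.31 and 8.63 TPM in the labelled libraries (log2 fold change 2.9 on the log2(TPM + 1) scale, limma adjusted p = 0.000101). Inhba fell by 1.89 on that scale, to a mean of 0.307 TPM from 3.96 TPM in WT c-kit+ (limma adjusted p = 0.00211). Of 7 tested genes that store or release latent TGF-beta, 2 were higher and 3 lower, beside 31.9% higher and 16.1% lower of all genes. Itgb5, an integrin subunit of a receptor that binds latent TGF-beta, rose to 38.7, 46.1 and 41.5 TPM from 5.32, 7.46 and 7.54 TPM, and was 39.0, 29.1 and 28.6 TPM in WT c-kit-. Like Tgfb1 it was lowest in WT c-kit+. Mmp9, a gelatinase that can cleave latent TGF-beta, had 3.85, 4.61 and 3.93 TPM in the labelled libraries, 73.8, 26.8 and 70.1 TPM in WT c-kit+ and 52.9, 46.5 and 262 TPM in WT c-kit-, a log2 fold change of -3.37 between the c-kit+ groups (limma adjusted p = 0.000726). Its highest value was in the WT c-kit- library that was also highest for Thbs1 and Ly6g. The part of granulocyte content in the Mmp9 levels was not tested.

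Between the c-kit+ groups 2 of 6 tested receptors were higher, 1 was lower and 3 did not pass, and of 6 SMADs 2 were higher, 2 lower and 2 did not pass, beside 31.9% higher and 16.1% lower of all genes. The higher SMADs were Smad1 (0.62, limma adjusted p = 0.0288) and Smad5 (0.44, limma adjusted p = 0.00265), which carry BMP signals, whereas the lower ones were Smad3 and Smad2 of the TGF-beta branch, of which Smad2 did not hold its call with most single libraries left out or with the block. Both BMP SMADs are named after their values were seen, and neither was run through the alternatives. Against WT c-kit- the labelled libraries were higher for Smad5 (0.53, limma adjusted p = 0.00199) but not for Smad1 (-0.12, limma adjusted p = 0.437). Of 18 regulators of SMADs and receptors tested between the c-kit+ groups 3 were higher, 5 lower and 10 did not pass. Skil, which encodes the SMAD corepressor SnoN, had 3.29, 3.67 and 4.38 TPM in the labelled libraries, 8.63, 8.96 and 10.7 TPM in WT c-kit+ and 9.68, 8.69 and 11.8 TPM in WT c-kit-. It fell by 1.13 on the log2 scale between the c-kit+ groups (limma adjusted p = 0.000992), close to the change of Tgif1.

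Of the corepressors and partners of TGIF1, 1 fell between the c-kit+ groups. This was Fbxw7, named after its values were seen (-0.41, limma adjusted p = 0.0268). The others of the 14 tested were higher in 5 cases and in 8 did not pass, beside 31.9% higher and 16.1% lower of all genes. The median of all 14 was 0.1 beside 0.12 over all genes. Pml, whose cytoplasmic product takes part in TGF-beta signaling and can be held back by TGIF1, rose to 69.2, 61.6 and 66.5 TPM from 29.9, 29.5 and 31.5 TPM (log2 fold change 1.09, limma adjusted p = 8.25e-05). Rxra, a retinoid receptor that TGIF1 can repress, rose to 16.3, 13.1 and 17.6 TPM from 7.56, 4.91 and 7.01 TPM (1.16, limma adjusted p = 0.00233), and its WT c-kit- level was 18.0, 12.2 and 15.4 TPM.

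Of 12 tested genes that TGF-beta induces or represses in many cells, 2 were higher between the c-kit+ groups, 6 lower and 4 did not pass, beside 31.9% higher and 16.1% lower of all genes. Past both thresholds 1 was higher and 4 lower, beside 11.7% of all genes. The list mixes induced and repressed genes, so these counts do not measure the response to TGF-beta. Skil is counted both here and among the regulators, and Smad7 both here and among the SMADs. Thbs1 is counted under latent TGF-beta and under thrombospondins. Id2, a helix-loop-helix inhibitor, had 9.68, 19.2 and 10.9 TPM in the labelled libraries against 94.8, 55.1 and 74.2 TPM in WT c-kit+ (-2.43, limma adjusted p = 0.000917). Cdkn1c, which encodes the cell cycle inhibitor p57, had 12.6, 6.51 and 14.3 TPM against 57.2, 44.9 and 50.9 TPM (-2.15, limma adjusted p = 0.00108), and in WT c-kit- 0.93, 1.63 and 4.07 TPM. Gadd45b, a stress-response gene, rose to 92.3, 71.0 and 91.6 TPM from 25.9, 26.2 and 24.3 TPM (1.69, limma adjusted p = 0.000105). Of 2 thrombospondin system genes tested, Thbs1 and its receptor Cd47 were both lower, Cd47 by -0.18 on the log2 scale (adjusted p = 0.0224 in limma).

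**Figure D4:**
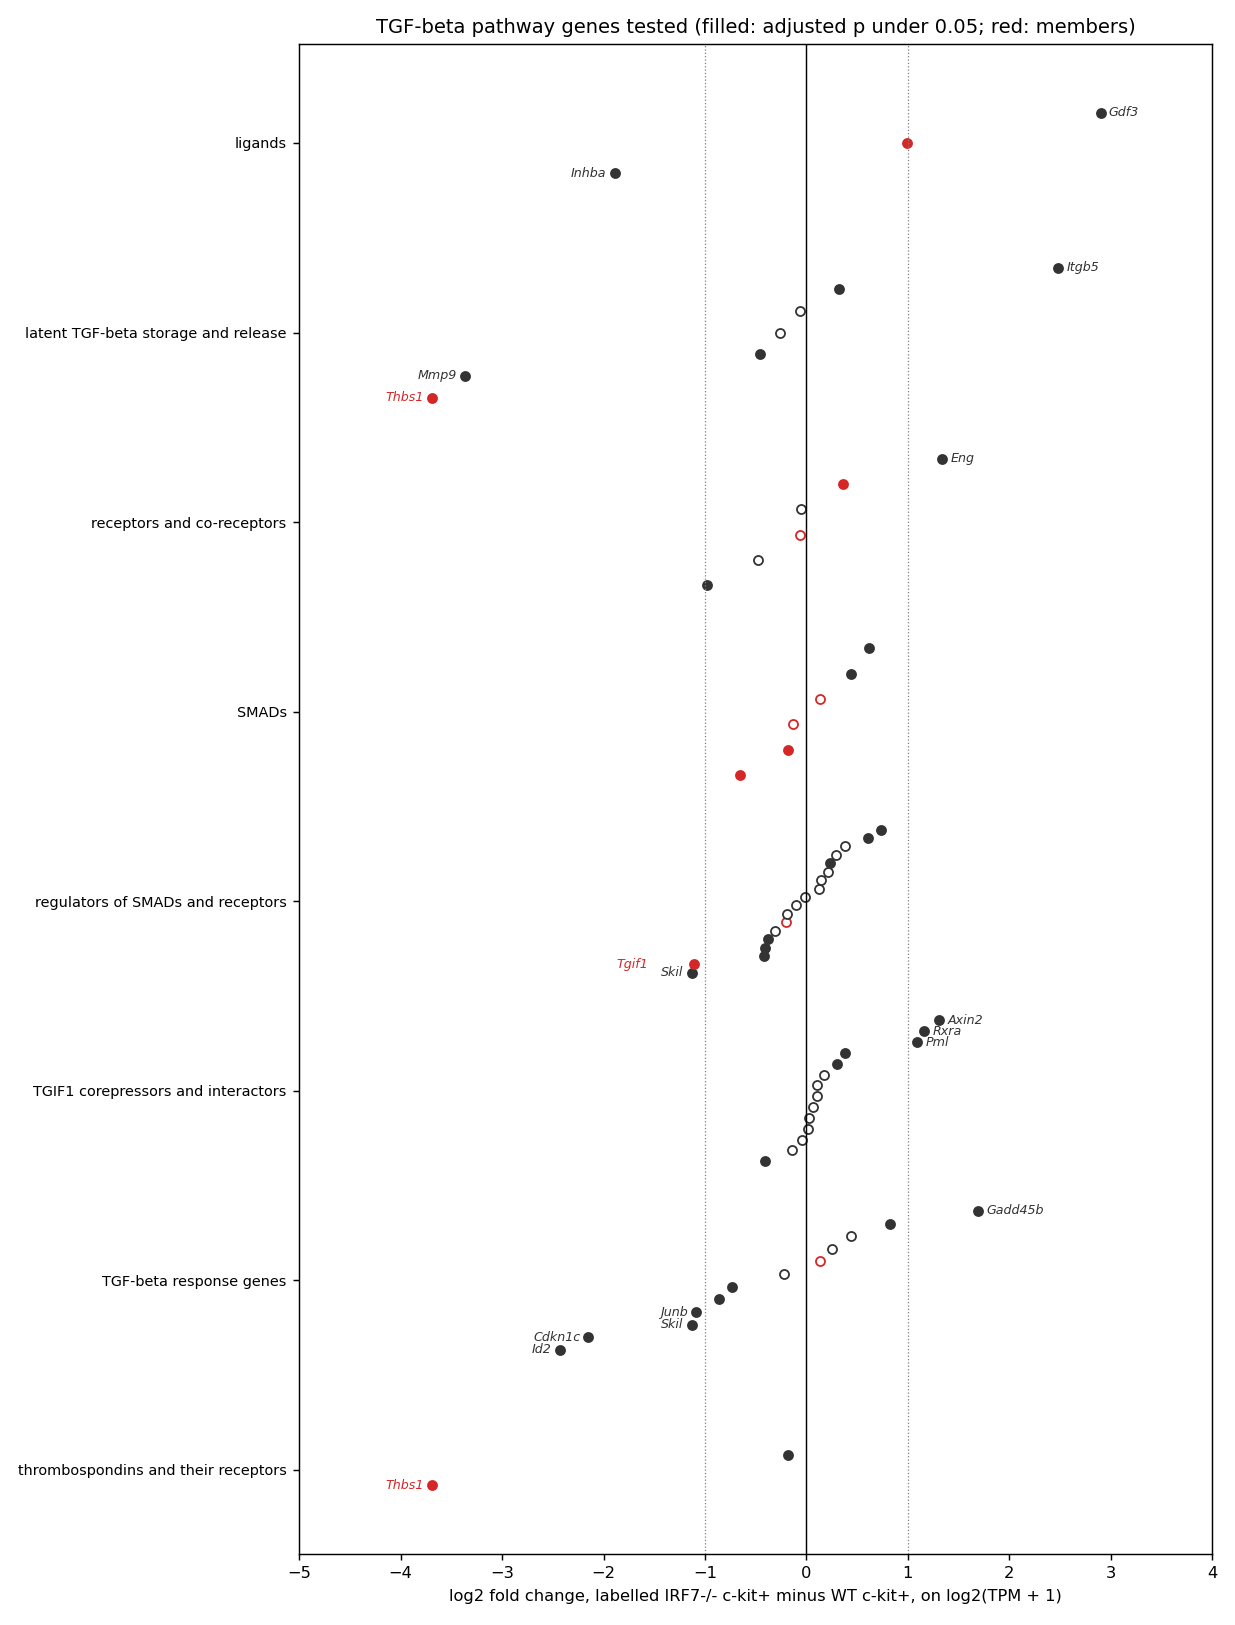
Log2 fold change from WT c-kit+ to the labelled libraries, on the log2(TPM + 1) scale, for the tested genes of 8 pathway lists, 1 dot per gene and list, red for the 10 genes followed here, filled for adjusted p under 0.05, named where the change was also at least 1 in size. Gdf3 and Itgb5 lie farthest to the right, and Thbs1 and Mmp9 farthest to the left.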

How the data were processed

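The processed file is a table of TPM that the authors deposited for 55536 genes, from 9 libraries made with an Illumina TruSeq kit. Each of its value columns was matched to a sample by name. Aligner, annotation and the use of strand are not given in the sources used here, and the study's text calls the assay a microarray. All identifiers are in GENCODE M21 on GRCm38. The 6 libraries of each comparison went into a separate linear model in limma 3.58.1 (R 4.3.3), with eBayes and its trend option. It used log2(TPM + 1) of genes that reached 1 TPM in 3 or more of these libraries, as all 10 genes did in the 3 comparisons, and p was adjusted by Benjamini-Hochberg over all of them. The thresholds were an adjusted p under 0.05 and, as in the study, a 1-unit change in log2. Exact permutation tests were two-sided, and no set test was run. Pathway genes outside the 10 were named if they were among the 3 largest changes of their list past both thresholds between the c-kit+ groups with at least 5 TPM in the higher group. The 10 genes, the lists and the tests were chosen with earlier results of these data known. The code was tested on simulated data. Alternatives were other filters, pseudocounts and scalings, a joint fit of all libraries, blocking by replicate number, and each library left out. Levels, lists and plots were made in Python 3.11.15 (pandas 2.3.3, scipy 1.17.1, matplotlib 3.10.9).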

Additional observations from a re-analysis of the deposited data

How the results depend on the processing

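Of 384 log2 fold changes of the 10 genes under the alternatives, 347 kept their direction and their side of the threshold, 16 lost a call, 11 gained one and 10 changed sign. Of 84 counts 82 stayed within 1.5 times the reported one, and the exceptions were the members called between the wild-type groups, 2 with median scaling and 2 with quantile normalization. The sign changes were all in values that had not passed. Without WT c-kit+ replicate 2, Tgif2 was 0.12 between the c-kit+ groups, without WT c-kit+ replicate 3 Tgfbr2 was 0.055, and without replicate 3 of the labelled libraries Smad4 was 0.053. Between the wild-type groups Smad3 was 0.054 with median scaling, 0.050 with quantile normalization and 0.086 without WT c-kit- replicate 3, Smad7 was -0.018 without WT c-kit- replicate 2 and -0.069 without WT c-kit+ replicate 3, and Thbs1 was 0.62 without WT c-kit- replicate 3 and 0.13 without WT c-kit+ replicate 3. The cause was not tested. With 1 library left out, values between the c-kit+ groups ran from -1.3 to -0.85 for Tgif1, -0.39 to 0.12 for Tgif2, -0.28 to 0.053 for Smad4 and -0.13 to 0.055 for Tgfbr2. Between the wild-type groups they ran from -0.24 to 0.086 for Smad3, -0.069 to 0.10 for Smad7 and -1.03 to 0.62 for Thbs1. Tgif2 and Smad7 gave no value with a filter of 5 TPM.

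With the replicate number as a block, 5 members passed between the c-kit+ groups in place of 6, since Smad2 was lost (adjusted p = 0.071), and Tgif1 was -1.11 (adjusted p = 0.00538). The block changed no other call. Deviations of same-numbered libraries from their group means correlated at 0.0214 to 0.0885 between the c-kit+ groups, 0.0372 to 0.0673 between the labelled libraries and WT c-kit-, and -0.0591 to 0.26 between the wild-type groups. Every library correlated best with its own number in the second of these pairs of groups only, so the numbers were not taken to pair the libraries.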

Other observations

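Some receptors, a receptor anchor and a response gene outside the 10, named here after their values were seen, were high in WT c-kit- and low in both c-kit+ groups. Acvr1, a type I receptor for BMPs and activins, had means of 8.34, 1.04 and 0.0167 TPM in WT c-kit-, WT c-kit+ and the libraries labelled IRF7-/- c-kit+. Bmpr2, the type II BMP receptor, had 6.79, 0.937 and 0.727 TPM, and Acvrl1 had 11.5, 1.68 and 0.983 TPM. From WT c-kit- to WT c-kit+ these genes changed by -2.19, -1.99 and -2.18 on the log2 scale (adjusted p of 0.000224, 0.000252 and 0.00128 in limma). Zfyve9, which encodes the receptor anchor SARA, changed by -2.3 (limma adjusted p = 0.000104). Tgfbi, a TGF-beta-induced matrix gene, had 173, 6.54 and 12.1 TPM in the same order, a change of -4.55 (limma adjusted p = 9.71e-06), and between the c-kit+ groups it was higher in the labelled libraries (0.82, limma adjusted p = 0.00846). Id1 went the other way, with 6.5, 22.1 and 30.4 TPM (1.65 between the wild-type groups, limma adjusted p = 0.00137). The receptor gene Eng had 0.813, 1.1 and 4.08 TPM. Of 8 receptors tested between the wild-type groups 5 were lower in WT c-kit+ and 3 did not pass, Eng and Acvr2b among them. Of 12 response genes 4 were higher, 4 lower and 4 did not pass. Over all genes 14.0% were higher and 27.6% lower.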
